A study of Mus musculus with 20 samples.

Results

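The genes described here, 10 in number, belong to surface and simple epithelia and were followed across mouse liver regeneration and hepatocyte organoids. They were Krt8, Krt18, Krt20 and Krt23 (keratins), Cldn4 and Cldn7 (claudins), Cdh17, Sprr1a, Ly6d and Lgals3. The members were taken as the rows of the deposited expression table whose Ensembl identifiers map to these symbols, 10 of the 54532 genes listed. They had been chosen by their FPKM in organoids against liver, so every value of that contrast is given for them as a description, with no test.

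The study sequenced total RNA of C57BL/6 mice in 20 libraries, 2 per group. Hep-Org, the hepatocyte organoids, were grown in Matrigel from isolated hepatocytes and passaged. The PHx groups were livers 6, 12, 24, 48 and 72 h and 7, 14 and 21 d after partial hepatectomy, the surgical removal of 70% of the liver, and the undamaged group had no operation. Per the labels' protocol the liver libraries were freshly isolated hepatocytes, called liver here, and all groups share the strain. The labels give no ages and do not tell if the 2 libraries of each group were different mice or cultures, so p-values measure the spread between these libraries only. The Hep-Org libraries were of opposite sex by expression, with the Y-linked Ddx3y at 9.90 FPKM in replicate 1 and 0.00756 FPKM in replicate 2, and Xist at 0.00128 FPKM in replicate 1 and 25.3 FPKM in replicate 2, so sex cannot be told apart from other differences between them.

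Keratins form the intermediate filaments of epithelial cells by pairing a type I with a type II protein. Krt8 (type II) and Krt18 (type I) are the pair of simple epithelia and the keratins of hepatocytes. Krt20 (type I) is known from intestinal and urothelial surface cells, and Krt23 is a type I keratin of simple epithelia. Claudins seal tight junctions, Cdh17 (liver-intestine cadherin) is an intestinal adhesion protein, and Sprr1a is a cross-linked component of the squamous cell envelope. Ly6d is a GPI-anchored surface protein of the Ly6 family, known from keratinocytes and lymphoid progenitors, and Lgals3 (galectin-3) is a galactoside-binding lectin abundant in macrophages and in many epithelia.

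The members fell into a group present in liver and a group near 0 there. Krt8, Krt18, Ly6d and Lgals3 had a median of at least 1 FPKM (fragments per exon length and sequencing depth, a level per length) over the 18 liver libraries. The lowest of these medians was 5.58 FPKM, for Lgals3. The other 6 had medians of 0 to 0.0859 FPKM in liver, the highest being that of Krt23, which is the member nearest below the 1 FPKM line.

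The promoters of 3 of the members near 0 in liver are shown because motif matches recurred within them. RefSeq promoters (GRCm38.p6) were matched for 8 of the 10 members, in 9 entries. The AP-1 motif TGANTCA, searched on both strands in the 250 bases before each start, occurred in 2 members, Sprr1a and Cldn4, with 2 matches in each. At least 1 match was held by 6.75% and at least 2 by 0.338% of all 32851 promoters. The letters GGAATG, searched on both strands as the motif of TEAD factors, matched 3 times in the promoter of Krt20, where the first 2 matches share a base, and once in that of Cldn7. At least 1 such match was held by 12.6% and at least 2 by 1.02% of all promoters. Sprr1a (chr3:92485882-92486131, minus strand) and Cldn4 (chr5:134946935-134947184, minus strand) are printed with the AP-1 matches in capitals, and Krt20 (chr11:99438154-99438403, minus strand) with the GGAATG matches, or their reverse complement, in capitals.
Sprr1a: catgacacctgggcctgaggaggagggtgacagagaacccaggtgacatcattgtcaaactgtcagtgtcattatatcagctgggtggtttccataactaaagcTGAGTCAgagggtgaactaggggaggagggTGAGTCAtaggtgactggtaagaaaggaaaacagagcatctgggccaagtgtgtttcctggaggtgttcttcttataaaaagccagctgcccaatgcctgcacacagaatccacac
Cldn4: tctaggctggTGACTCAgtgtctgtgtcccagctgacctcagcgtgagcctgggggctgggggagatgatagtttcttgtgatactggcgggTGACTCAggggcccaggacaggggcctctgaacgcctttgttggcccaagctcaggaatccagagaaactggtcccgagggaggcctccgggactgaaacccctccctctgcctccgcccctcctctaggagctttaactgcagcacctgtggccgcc
Krt20: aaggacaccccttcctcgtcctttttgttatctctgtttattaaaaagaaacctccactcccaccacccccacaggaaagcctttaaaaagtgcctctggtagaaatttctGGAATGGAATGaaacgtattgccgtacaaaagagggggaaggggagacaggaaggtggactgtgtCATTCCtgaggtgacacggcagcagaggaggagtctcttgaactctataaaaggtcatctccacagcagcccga
The AP-1 matches began 146 and 116 bases before the start of Sprr1a and 240 and 158 bases before that of Cldn4. The GGAATG matches of Krt20 began 139, 134 and 74 bases before its start. The TATA box letters TATAAA stood in Sprr1a and Krt20, beginning 43 and 29 bases before the start, and in 12.4% of all promoters. The only other motif searched, the GC box letters GGGCGG, stood in 3 of the 8 members and in 32.7% of all promoters. The printed promoters were picked for their matches, so the shares of all promoters are no test of them. A match is a run of letters and no measurement of binding.

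Before the members are described, 1 library and 1 scale need to be named. PHx 24 h replicate 1 held the highest liver FPKM of 9 of the 10 members, all but Lgals3. Of the 10233 genes with a mean of at least 1 FPKM over liver, 5% were highest there. Among the members only Krt8, Krt18, Ly6d and Lgals3 are in that set, so the share is not a like measure for the others. For Krt20, Cldn4, Cldn7 and Cdh17 the highest value was 8, 5, 5 and 4 reads. After all libraries were rescaled to the same FPKM sum it held 5 of the 10 (Krt8, Krt18, Krt23, Cdh17 and Sprr1a), where 1.14% of the same 10233 genes were highest. Several results that rest on it are also given without it. The deposited FPKM summed to 167676 and 184765 in Hep-Org and to between 326835 and 988797 in liver. Rescaling to the same sum raised the median gene by 1.22 on the log2 scale in Hep-Org minus liver, and Hep-Org levels are therefore levels on the authors' scale. Reads recovered from the values numbered between 13.6 and 41.4 M (M, 1000000 reads) in each library.

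**Figure D1:**
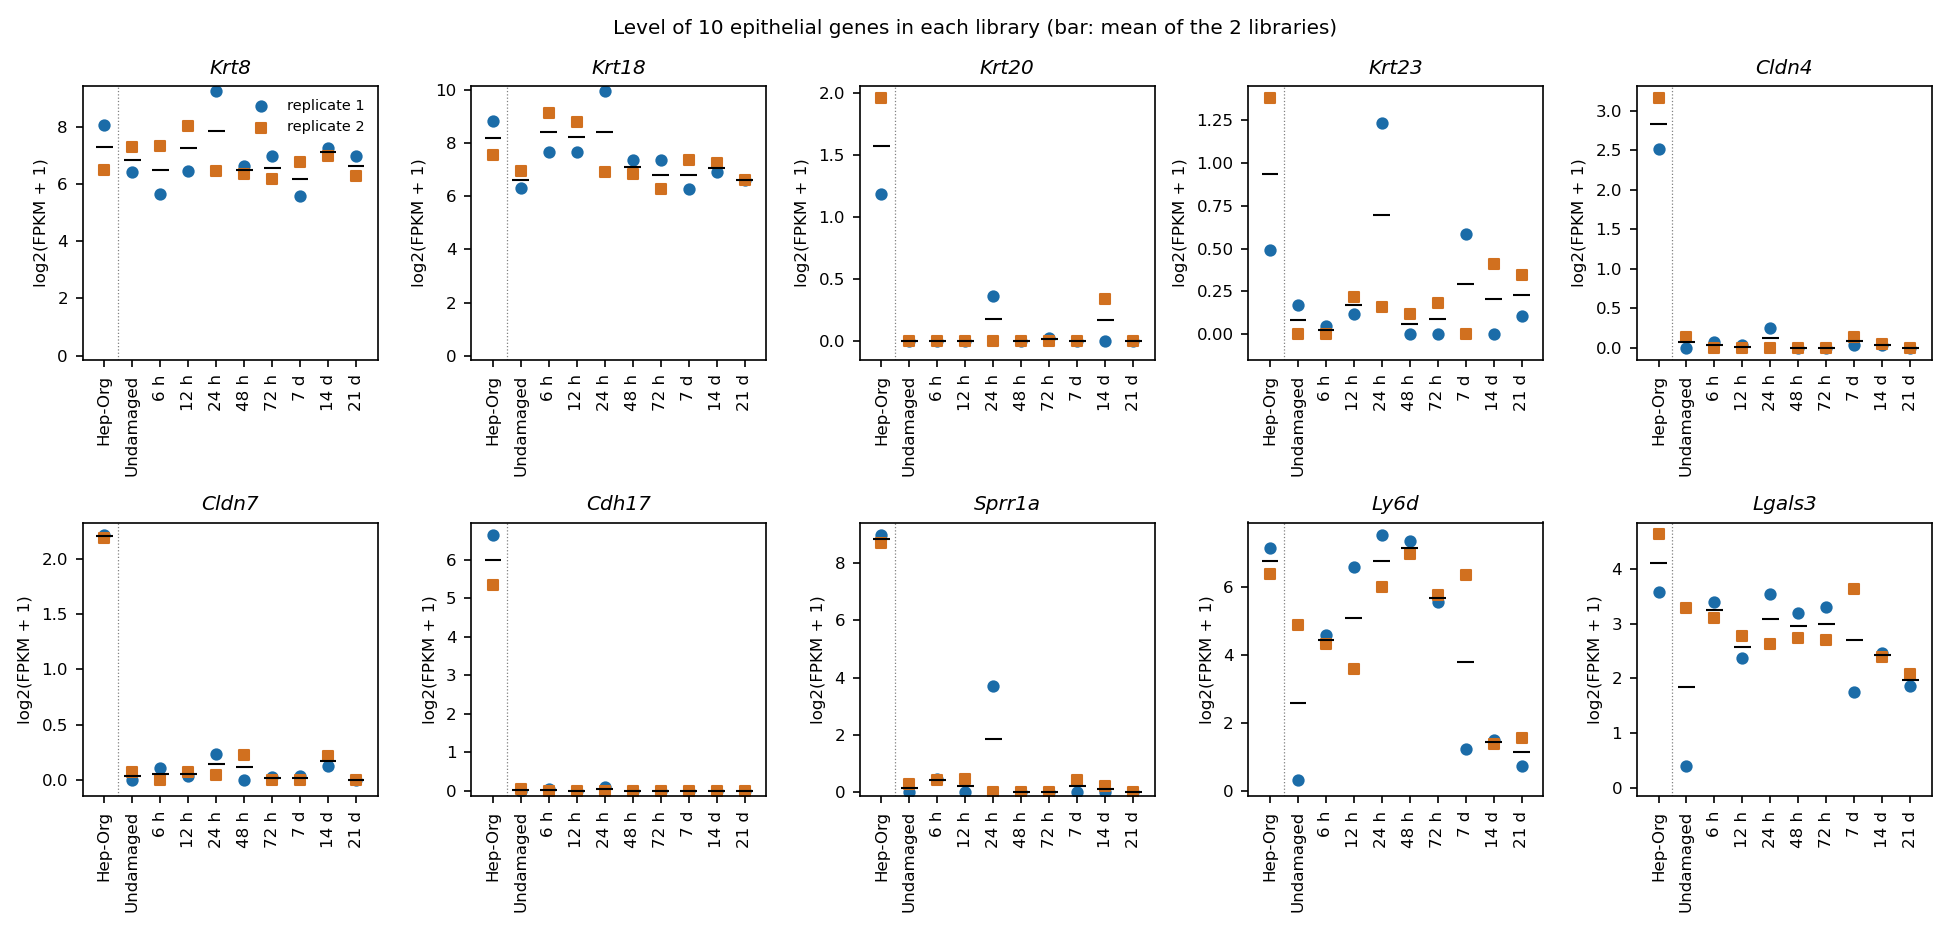
Level of each of the 10 genes in every library, as log2(FPKM + 1), in Hep-Org at the left of the dotted line and in liver at its right (undamaged, then 6 h to 21 d after PHx). Blue circles are replicate 1, orange squares replicate 2 and bars the mean of both. Krt20, Krt23, Cldn4, Cldn7, Cdh17 and Sprr1a lie near 0 in most liver libraries, and PHx 24 h replicate 1 stands above the other liver libraries for Sprr1a, Krt23, Krt8 and Krt18.

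Sprr1a had the highest level of the members in Hep-Org. It reached 500.3 and 412 FPKM in the Hep-Org libraries, against a liver median of 0 and a highest liver value of 12.1 FPKM. It ranked 39 and 38 among all genes of the Hep-Org libraries. In reads this was 17617 and 16894 in Hep-Org, against 143 in PHx 24 h replicate 1 and at most 9 in any other liver library. Sprr1a was listed at 0 in 11 of 18 liver libraries, including PHx 24 h replicate 2. The level in PHx 24 h replicate 1 was 2.66% of the Hep-Org mean, and the next liver library, PHx 6 h replicate 1, had 0.382 FPKM. In bulk samples such as these, fewer cells of a type and less RNA per cell cannot be told apart.

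Cdh17 was nearly without reads in liver. It had 98.7 and 39.7 FPKM in Hep-Org (19286 and 9034 reads), against 0 in 15 of 18 liver libraries. The 3 liver libraries with any read were PHx 6 h replicate 1 with 3 reads, PHx 24 h replicate 1 with 4 reads and undamaged replicate 2 with 1 read. The Hep-Org libraries stood far above every liver library, replicate 1 higher than replicate 2.

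The claudins of the list were lower in level, and their Hep-Org and liver values did not overlap. Cldn4, a claudin of distal nephron, bladder and gut epithelia, had 4.71 and 7.92 FPKM in Hep-Org, against at most 0.188 FPKM (5 reads) in liver. Cldn7, a basolateral claudin of gut and kidney epithelia, had 3.65 and 3.57 FPKM in Hep-Org, against at most 0.175 FPKM (5 reads) in liver. Cldn4 was listed at 0 in 10 and Cldn7 in 7 of the 18 liver libraries. At these depths the single reads of liver do not show a difference between times.

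The keratins Krt20 and Krt23 were the lowest members in Hep-Org. Krt20 had 1.27 and 2.88 FPKM in Hep-Org (107 and 283 reads), against 0 in 15 of 18 liver libraries. Its highest liver values were 0.284 FPKM in PHx 24 h replicate 1 and 0.266 FPKM in PHx 14 d replicate 2, with 8 reads each. Krt23 had 0.409 and 1.61 FPKM in Hep-Org (28 and 128 reads), against 1.35 FPKM (31 reads) in PHx 24 h replicate 1 and at most 0.502 FPKM in the other liver libraries. Krt23 is therefore the exception in this set on the deposited scale, since 2 liver libraries reached the lower of its Hep-Org values. After rescaling to the same sum its Hep-Org values were 1.10 and 4.75, above the highest liver value of 0.948.

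Krt8 and Krt18 were abundant in every library. Krt8 had 269.5 and 89.3 FPKM in Hep-Org, against a liver range of 46.6 to 609.7 FPKM with a median of 104 FPKM. Krt18 had 446 and 187 FPKM in Hep-Org, against a liver range of 75.7 to 989.9 FPKM with a median of 135 FPKM. On the deposited scale, 10 of 18 liver libraries for Krt8 and 5 of 18 for Krt18 reached the lower Hep-Org value. The groups thus overlapped for both on that scale. After rescaling to the same sum, Krt8 was 723 and 264 in Hep-Org, and only PHx 24 h replicate 1 (427) reached the lower value. Krt18 was then 1196 and 552 in Hep-Org, and again only that library (693) reached the lower value. The log2 difference of log2(FPKM + 1), Hep-Org minus liver, was 0.45 for Krt8 and 0.84 for Krt18. Krt8 changed sign to -0.34 when Hep-Org replicate 1 was left out. After rescaling the differences were 1.97 for Krt8 and 2.35 for Krt18, and with limma's voom on the recovered reads 1.53 and 1.92. Both genes lie on chromosome 15 (GRCm38), Krt8 at 101996698 to 102004482 on the minus strand and Krt18 at 102028180 to 102032027 on the plus strand. Krt8 overlaps the antisense long noncoding RNA Gm36026 and has a named pseudogene, Krt8-ps, and strandedness is not given in the sources used here, so its reads may be shared.

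Over the times after PHx, Krt8 showed no order that exceeded the spread between libraries. It had 84.4 and 156 FPKM in undamaged liver, 49.6 and 161 FPKM at 6 h, 87.8 and 262 FPKM at 12 h and 609.7 and 87.7 FPKM at 24 h. Later it had 99.2 and 81.5 FPKM at 48 h, 127 and 70.9 FPKM at 72 h, 46.6 and 109 FPKM at 7 d, 152 and 127 FPKM at 14 d and 127 and 77.1 FPKM at 21 d. Only PHx 24 h replicate 1 and PHx 12 h replicate 2 lay above the 161 FPKM of PHx 6 h replicate 2, and the other library of each of these times had 87.7 and 87.8 FPKM. Ordered by mean, the libraries of every time overlapped those of the next.

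Krt18 was high in more of the early libraries. It had 77.2 and 121 FPKM in undamaged liver, 200.4 and 561 FPKM at 6 h, 201 and 440.3 FPKM at 12 h and 989.9 and 118 FPKM at 24 h. From 48 h on it lay between 75.7 and 163 FPKM in all 10 libraries. The mean was 381 ± 255 FPKM at 6 h and 321 ± 169 FPKM at 12 h, against 99.2 ± 31.1 FPKM in undamaged liver (SD, n = 2 each). After rescaling to the same sum it was 226 and 292 at 6 h, 239 and 299 at 12 h and 693 and 137 at 24 h. Undamaged liver then had 81.5 and 60.7, and the libraries from 48 h on reached up to 246 (PHx 7 d replicate 2). The order below is on the deposited scale. Ordered by mean, 24, 6 and 12 h came first and overlapped each other. The 12 h libraries did not overlap those of 48 h, the next in order (163 and 113 FPKM), and the later and undamaged groups overlapped their neighbours again.

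**Figure D2:**
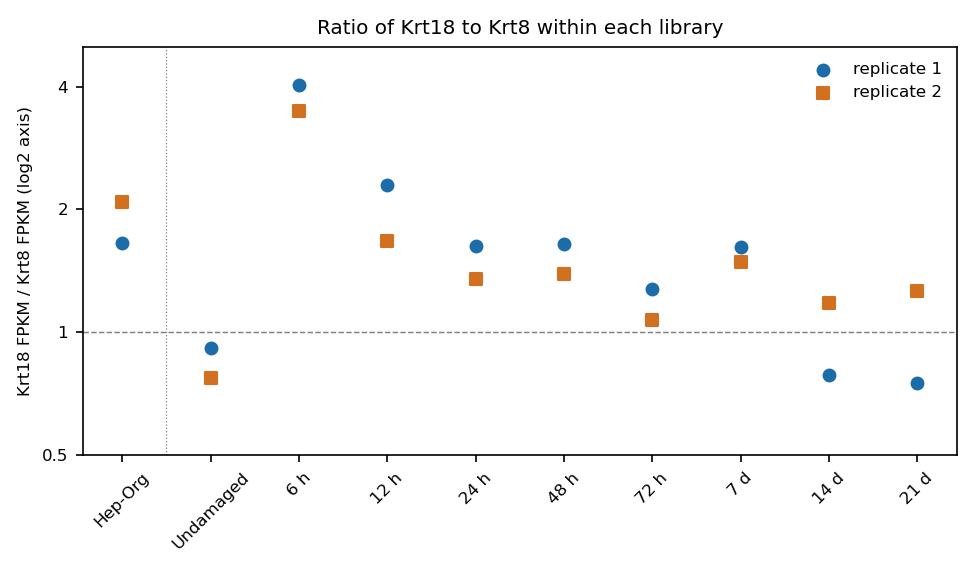
Krt18 FPKM divided by Krt8 FPKM in each library on a log2 axis, Hep-Org at the left and liver in time order at the right. Circles are replicate 1 and squares replicate 2, and the dashed line marks equal levels. The 6 h libraries stand highest at 4.04 and 3.48, and both undamaged libraries lie below 1.

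The ratio of Krt18 to Krt8 within a library, which the scale of a library cannot move, was highest at 6 h after PHx. It was chosen after the values had been seen, so its p-values below are descriptions and no independent support. The ratio was 4.04 and 3.48 at 6 h, 2.29 and 1.68 at 12 h and 1.62 and 1.35 at 24 h, with 0.914 and 0.774 in undamaged liver. It was 1.65 and 1.39 at 48 h, 1.28 and 1.07 at 72 h and 1.62 and 1.48 at 7 d, so that 48 h and 7 d overlapped 24 h and all libraries of these times lay above undamaged liver. At 14 d it was 0.786 and 1.18 and at 21 d 0.752 and 1.26, and in Hep-Org 1.65 and 2.09. The 6 libraries of 6 to 24 h (median 1.99) lay above all 4 of 14 to 21 d (median 0.983). The mean log2 ratio differed by 1.19 (two-sided exact permutation test, p = 0.0095, the smallest p that 6 libraries against 4 allow). Without PHx 24 h replicate 1 the difference was 1.28 (two-sided exact permutation test, p = 0.016, again the smallest p that the numbers of libraries allow). Within replicate 1 alone it was 1.68 and within replicate 2 alone 0.70, each with p = 0.2 in the two-sided exact permutation test, the smallest p that 3 libraries against 2 allow. The pair's levels were related across the 18 liver libraries (Pearson r of log2(FPKM + 1) 0.761, Spearman rho 0.639, with permutation p 0.00061 and 0.0053, adjusted over 3 relations 0.000915 and 0.00795). In all 3 relations the permutations moved liver libraries freely and did not keep those of a time together. Genes that both follow time can therefore give small p-values. Without PHx 24 h replicate 1 alone, r was 0.569 and rho 0.571 (permutation p 0.018 and 0.019). Without PHx 24 h replicate 1 and PHx 12 h replicate 2, the libraries with Krt8 farthest from its median, r was 0.398 and rho 0.488 (permutation p 0.127 and 0.058). The relation over all liver libraries thus rests in part on those 2 libraries. Within replicate 1 r was 0.755 and rho 0.4 (permutation p 0.049 and 0.29), and within replicate 2 r was 0.821 and rho 0.917 (permutation p 0.0052 and 0.0015), each with 1 of the 2 libraries included.

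Ly6d was the member that varied most in liver. It lies on chromosome 15 at 74762056 to 74763620 (GRCm38, minus strand). Its level was 142 and 82.5 FPKM in Hep-Org, against a liver range of 0.262 to 185 FPKM. After rescaling to the same sum it was 382 and 244 in Hep-Org, against at most 130 in liver. Over time it had 0.262 and 28.4 FPKM in undamaged liver, 23.1 and 19.1 FPKM at 6 h, 95.4 and 11.1 FPKM at 12 h and 185 and 63.7 FPKM at 24 h. It had 163 and 125 FPKM at 48 h, 46.5 and 53.6 FPKM at 72 h, 1.38 and 80.8 FPKM at 7 d, 1.82 and 1.63 FPKM at 14 d and 0.657 and 1.98 FPKM at 21 d. Both libraries were high at 24 and 48 h and both low at 14 and 21 d, while the libraries of undamaged liver and of 7 d lay far apart. Ordered by mean from 48 h down to 21 d, the libraries of each liver group overlapped those of the next.

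Ly6d was called between 6 to 24 h and 14 to 21 d, the only member so called. The 6 libraries of 6 to 24 h lay between 11.1 and 185 FPKM (median 43.4), against 0.657 to 1.98 FPKM (median 1.73) in the 4 libraries of 14 to 21 d, and the windows did not overlap within either replicate. The log2 difference was 4.14 ± 0.98 (SE; limma with Benjamini-Hochberg adjustment over 13162 genes, adjusted p = 0.010). Calls needed a limma adjusted p under 0.05 and a log2 difference of at least 1 in size, and by this rule 1 of 10 members was called, where 7.86% of all genes were called in either direction (3.46% higher, 4.4% lower). Leaving out each library in turn gave differences of 3.65 to 4.64 with adjusted p of 0.0041 to 0.048. With limma's voom on the recovered reads the difference was 4.68 but the adjusted p was 0.0833, past the threshold. All libraries of both windows had the Y-linked Ddx3y at 9.66 FPKM or more, while those of 48 h, 72 h and 7 d had Xist and no Ddx3y, so that mouse sex does not separate these windows but does run with the middle times.

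The other members were not called between these windows. Krt18 had 118 to 989.9 FPKM (median 321) at 6 to 24 h, against 95.2 to 149 FPKM (median 109) at 14 to 21 d. Its log2 difference was 1.51 ± 0.55 (SE; limma, adjusted p = 0.068), with adjusted p of 0.046 without PHx 6 h replicate 1 and 0.010 without PHx 24 h replicate 2, and with a difference of 1.0 without PHx 24 h replicate 1 (adjusted p = 0.19). Krt8 differed by 0.32 ± 0.57 (SE; limma, adjusted p = 0.73), and this turned to -0.14 without PHx 24 h replicate 1 and to -0.13 after rescaling to the same sum. Lgals3 differed by 0.77 ± 0.49 (SE; limma, adjusted p = 0.29).

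No member was called over the 8 times or at any time against undamaged liver. Of the 10 members 6 did not reach 1 FPKM in 2 liver libraries and could hardly be called between liver groups. The counts of calls below therefore speak of Krt8, Krt18, Ly6d and Lgals3. Over the time course 0 of 10 members passed, where 13.6% of all genes did, and Ly6d alone had an unadjusted p under 0.05 (limma moderated F test, adjusted p = 0.062). Its range of group means was 6.01 on the log2 scale, and the adjusted p fell to between 0.016 and 0.026 when either library of 7 d or of undamaged liver was left out. The range of group means of Sprr1a was 1.86, and 0.44 without PHx 24 h replicate 1. It was 3.71 without PHx 24 h replicate 2, listed at 0, since PHx 24 h replicate 1 was then that time alone. At 6 h 0 of 10 members were called against undamaged liver, where 13.3% of all genes were, and at 12 h 0 of 10, where 5.56% were. At 24, 48 and 72 h and 7 d, 0 of 10 were called, where 0.228%, 0.691%, 3.23% and 0.608% of all genes were, and at 14 and 21 d 0 of 10, where 0% of all genes were by limma. An unadjusted limma p under 0.05 was reached by 2 members at 24 h (Ly6d and Sprr1a) and by 1 at 48 h (Ly6d). That of Sprr1a rests on PHx 24 h replicate 1, since replicate 2 was listed at 0. No member reached it at the other times, and limma's voom on the recovered reads called none in any of these comparisons. The difference of Ly6d from undamaged liver was 4.56 at 48 h (limma, adjusted p = 0.23), and was 2.29 without undamaged replicate 1 and 6.83 without undamaged replicate 2. The difference of Krt18 from undamaged liver was 1.78 ± 0.85 at 6 h (SE; limma, adjusted p = 0.17).

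Undamaged replicates 1 and 2 stood apart in the acute-phase gene Saa1, a serum amyloid induced in hepatocytes by inflammation, and Ly6d was high in the same library. Saa1 had 19.9 FPKM in undamaged replicate 1 and 20927 FPKM in undamaged replicate 2, beside Ly6d at 0.262 and 28.4 FPKM. At 7 d Saa1 had 13.6 and 6138 FPKM in replicates 1 and 2, beside Ly6d at 1.38 and 80.8 FPKM. Over the 18 liver libraries Pearson's r of Ly6d with Saa1 was 0.739 and Spearman's rho 0.637 (permutation p 0.00048 and 0.0051, adjusted over 3 relations 0.000915 and 0.00795). Saa1 was chosen after its values had been seen, and the adjustment does not cover that choice. All p-values of this pair are therefore descriptions and no independent support. Without PHx 7 d replicate 1 and PHx 21 d replicate 2, the libraries with Saa1 farthest from its median, r was 0.684 and rho 0.538 (permutation p 0.0031 and 0.034). Within replicate 1 r was 0.820 and rho 0.917 (permutation p 0.0024 and 0.0014), and within replicate 2 r was 0.654 and rho 0.517 (permutation p 0.055 and 0.16). Ly6d had no liver value between 1.98 and 11.1 FPKM, so these correlations run across a gap in Ly6d. The gene nearest to Ly6d over the 18 liver libraries among 9249 candidates was Alg8, a glucosyltransferase of N-glycan assembly (r = 0.904), followed by Ehd4, an endocytic recycling ATPase (r = 0.85), and Lcn2, the siderophore-binding lipocalin (r = 0.844).

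**Figure D3:**
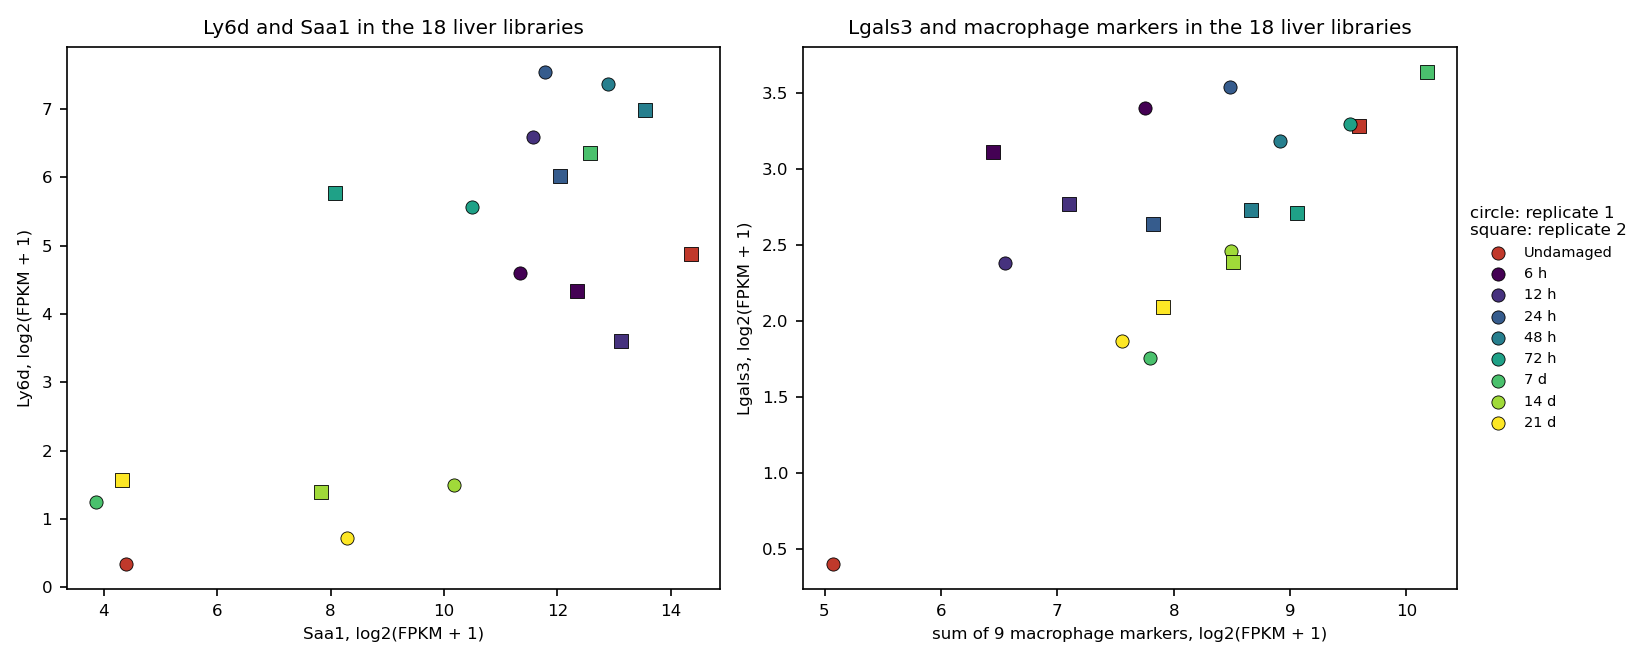
Left, Ly6d against Saa1, and right, Lgals3 against the sum of 9 macrophage markers, each as log2(FPKM + 1) in the 18 liver libraries. Colours give the time (red for undamaged), circles replicate 1 and squares replicate 2. On the left 6 libraries lie apart from the other 12 by a gap in Ly6d, and on the right undamaged replicate 1 lies far below all others.

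Lgals3 was low to moderate in all libraries. It had 10.9 and 23.8 FPKM in Hep-Org, against 0.315 to 11.5 FPKM (median 5.58) in liver. Over time it had 0.315 and 8.70 FPKM in undamaged liver, 9.56 and 7.64 FPKM at 6 h, 4.20 and 5.82 FPKM at 12 h, 10.6 and 5.21 FPKM at 24 h and 8.09 and 5.63 FPKM at 48 h. It had 8.81 and 5.53 FPKM at 72 h, 2.38 and 11.5 FPKM at 7 d, 4.49 and 4.23 FPKM at 14 d and 2.65 and 3.25 FPKM at 21 d. On the deposited scale only PHx 7 d replicate 2 passed the lower Hep-Org value, and the undamaged libraries spanned most of the liver range. After rescaling to the same sum no liver library passed it, with 29.2 and 70.4 in Hep-Org and at most 17.4 in liver. Ordered by mean, neighbouring liver groups overlapped except the lowest pair, 14 d and 21 d.

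Macrophage markers moved with Lgals3 across liver libraries. The summed FPKM of 9 macrophage and Kupffer cell markers was 1.15 to 21.2 in Hep-Org, with Clec4f at 0 and 0.0079 FPKM, against 32.6 to 1156 in liver. The lowest liver sum was in undamaged replicate 1 and the highest in PHx 7 d replicate 2, the libraries with the lowest and highest Lgals3. Pearson's r was 0.681 and Spearman's rho 0.521 over 18 libraries (permutation p 0.0023 and 0.027, also after adjustment over 3 relations). Without those 2 libraries r was 0.334 with a permutation p of 0.20, so that the relation rests on them. Within replicate 1 r was 0.808 (permutation test, p = 0.0096) and within replicate 2 it was 0.413 (permutation test, p = 0.27). The nearest genes over the liver libraries were Cyba, a subunit of the phagocyte NADPH oxidase (r = 0.951), Pkm, the pyruvate kinase of most non-hepatic cells (r = 0.921), and Tagln2, an actin-binding transgelin (r = 0.914).

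The nearest genes of the keratins were different ones. For Krt18 these were Myl12a, a myosin regulatory light chain (r = 0.894), Actb, cytoplasmic beta-actin (r = 0.874), and Ctnnd1, the p120 catenin of adherens junctions (r = 0.861). For Krt8 these were Samm50, a sorting and assembly subunit of the mitochondrial outer membrane (r = 0.873), Pdgfa, a platelet-derived growth factor (r = 0.849), and Cblc, a Cbl family ubiquitin ligase of epithelia (r = 0.845). Without PHx 24 h replicate 1 the correlation of Krt8 with Samm50 was 0.849, with Pdgfa 0.671 and with Cblc 0.714. Those of Krt18 were then 0.840 with Myl12a, 0.866 with Actb and 0.787 with Ctnnd1.

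The cells behind the labels were checked by their markers. The summed FPKM of 10 hepatocyte markers was 4520 and 1095 in Hep-Org replicates 1 and 2, against 22760 to 77649 in liver, and 8 of the 10 were called lower. Alb, serum albumin, had 3132 FPKM in Hep-Org replicate 1 and 86.4 FPKM in replicate 2, against 12875 to 61188 FPKM in liver, and Cyp2e1, Tat and Cps1 were at most 0.191 FPKM in Hep-Org. The 2 not called were Trf (transferrin), with 247 and 243 FPKM in Hep-Org, against 166 to 2663 FPKM in liver, and the hepatocyte factor Hnf4a, with 43.5 and 37.9 FPKM in Hep-Org, against 48.9 to 127 FPKM in liver. The summed FPKM of 10 cholangiocyte markers was 4458 and 2748 in Hep-Org replicates 1 and 2, against 8.43 to 338 in liver, and most of it was Spp1 (osteopontin) at 4416 and 2695 FPKM in replicates 1 and 2. Sox9 had 10.7 and 10.1 FPKM in Hep-Org, against at most 4.32 FPKM in liver, while Cftr was at most 0.136 FPKM in Hep-Org. The part of these marker levels in the members' levels was not tested.

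Other keratins, squamous genes and gut genes were tested between Hep-Org and the mean of the 9 liver groups, where 24.6% of all genes were called (10.7% higher, 13.9% lower, median log2 difference -0.03). The split was 1407 genes higher and 1832 lower, but 7074 higher and 1005 lower after rescaling to the same sum, so directions of whole lists depend on the scale. A gene that reached the filter of 1 FPKM in 2 libraries only through Hep-Org was selected towards higher values there. Such genes are therefore given by their levels alone. Counts and medians are over the genes that passed in liver without Hep-Org, of which 8.56% of all were called higher and 14.5% lower (median -0.08), a choice made after the data had been seen. This set keeps genes that passed only through liver, which the filter selects towards lower values in Hep-Org. Its counts therefore lean towards lower calls. Of 21 other keratins 3 passed in this way, with 1 called higher, none lower and a median of -0.16. Krt19, the type I keratin of bile ducts, had 9.80 and 17.3 FPKM in Hep-Org, against 0 to 2.99 FPKM in liver (log2 difference 3.01 ± 0.33 SE; limma, adjusted p = 1.2e-05). Krt7, a type II keratin of bile ducts, had 1.24 and 1.54 FPKM in Hep-Org, against 0 to 0.481 FPKM in liver, and passed only through Hep-Org. Both are also on the cholangiocyte list. The epidermal keratin Krt14 was listed at 0 in both Hep-Org libraries, against up to 6.00 FPKM in liver.

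Beside Sprr1a, 5 of 28 other squamous genes reached 1 FPKM in a Hep-Org library (Sprr1b, Ivl, Ppl, Sfn and Crct1). In liver alone 2 of the 28 passed the filter, with 1 called higher and 1 lower. Ivl, the envelope protein involucrin, had 4.001 and 1.79 FPKM in Hep-Org, against at most 0.107 FPKM in liver, and passed only through Hep-Org. Ppl, the envelope and desmosome linker periplakin, had 7.45 and 4.70 FPKM in Hep-Org, against 0.925 to 7.13 FPKM in liver, with the highest liver value in PHx 24 h replicate 1 (1.20 ± 0.31 SE; limma, adjusted p = 0.0069, and 0.15 without Hep-Org replicate 1). Tgm1, the transglutaminase that cross-links the envelope, fell to 0.333 and 0.602 FPKM in Hep-Org, against 1.29 to 18.9 FPKM in liver (-2.27 ± 0.44 SE; limma, adjusted p = 0.0011, and 0.073 against undamaged liver alone). Sprr1b, the nearest paralogue of Sprr1a, had 0.496 and 2.84 FPKM in Hep-Org and was listed at 0 in all 18 liver libraries. Crct1, a gene of the epidermal differentiation complex, had 11.6 and 0.868 FPKM in Hep-Org and was listed at 0 in all 18 liver libraries. Neither passed the filter on low values, so both are given by their levels alone.

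Gut genes differed among themselves. Of 23 intestinal genes 4 passed in liver alone, with none called higher, 4 lower and a median of -2.88. Over all 7 that passed, 2 were called higher and 4 lower. Fabp2 and Tff3 (Tff3 at 0 and 0.0398 FPKM in Hep-Org) passed only through liver, where the filter favours lower calls. These counts therefore do not show a direction of the list. Guca2a, Lgr5 and Vil1 passed only through Hep-Org. In a Hep-Org library 9 of the 23 reached 1 FPKM (Vil1, Cdx2, Lgals4, Muc13, Cdhr5, Isx, Guca2a, Olfm4 and Lgr5). Vil1 had 1.28 and 5.70 FPKM in Hep-Org, against at most 0.218 FPKM in liver. Lgr5 had 0.381 and 1.17 FPKM in Hep-Org, against 0.0440 to 1.49 FPKM in liver. Guca2a, the gut peptide guanylin, had 4.01 and 1.42 FPKM in Hep-Org, against at most 0.23 FPKM in liver. Fabp2, the intestinal fatty acid-binding protein, fell to 0.213 and 0 FPKM in Hep-Org, against 11.7 to 91.1 FPKM in liver (-5.10 ± 0.49 SE; limma, adjusted p = 2.9e-06). Cdhr5, a protocadherin of microvilli, fell to 2.09 and 3.27 FPKM in Hep-Org, against 12.0 to 65.9 FPKM in liver (-2.70 ± 0.36 SE; limma, adjusted p = 6.1e-05). The intestinal regulator Cdx2 differed between the Hep-Org libraries, with 0.0304 FPKM in replicate 1 and 1.58 FPKM in replicate 2, against at most 0.02 FPKM in liver. Cdx2, Sprr1b, Crct1 and Krt14 were chosen after their values had been seen.

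**Figure D4:**
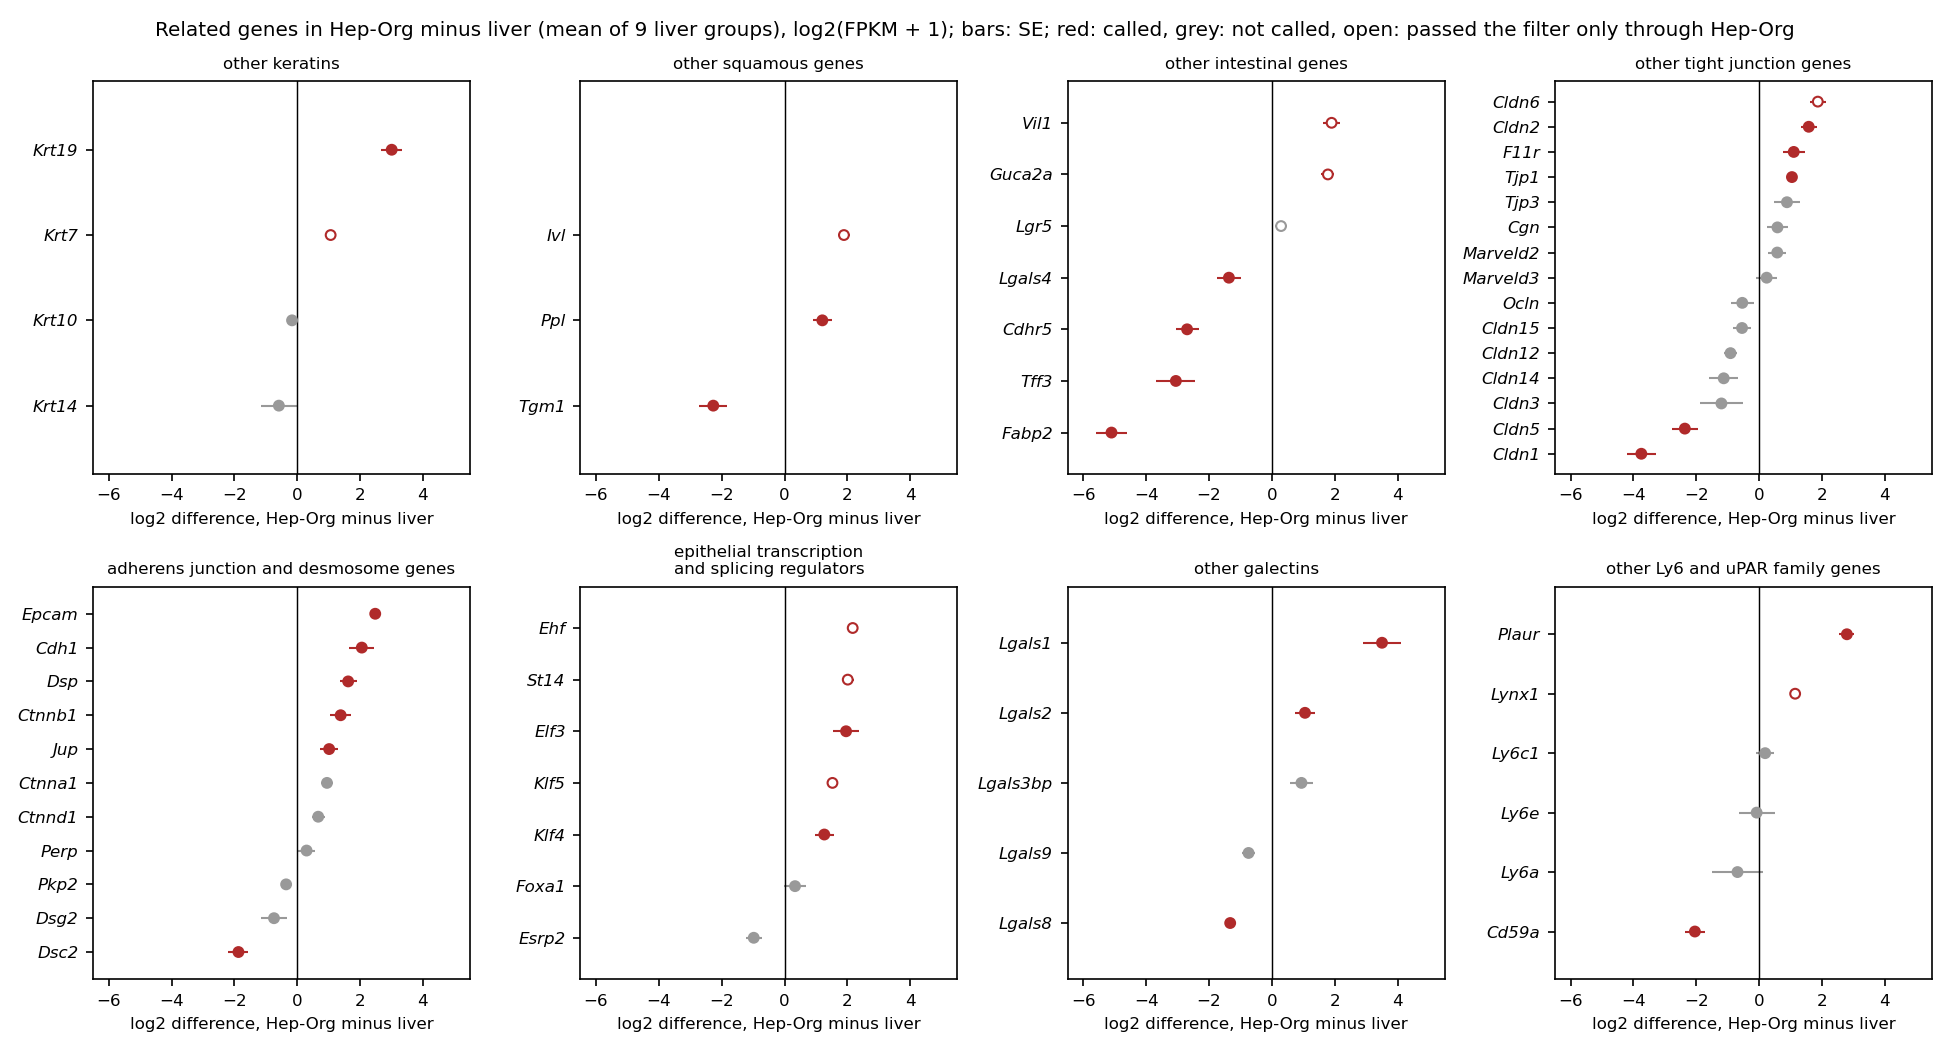
Log2 difference of log2(FPKM + 1), Hep-Org minus the mean of the 9 liver groups, for the tested genes of 8 related lists. Bars are SE, red points were called and grey points were not, and open circles passed the filter only through Hep-Org. Among filled points all 4 intestinal genes were called lower, and 5 adherens junction and desmosome genes were called higher and 1 lower. Filled points include genes that passed only through liver.

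Tight junction genes went both ways in Hep-Org. Of 21 other tight junction genes 14 passed in liver alone, with 3 called higher, 2 lower and a median of -0.15. Over all that passed, Cldn6 included, 4 were called higher and 2 lower, 2 and 3 against undamaged liver alone, and 8 and 2 after rescaling. In these counts Cldn6 had to be higher, since the filter admitted it through Hep-Org. Leaving out either Hep-Org library removed Cldn6 from the test, so counts of those runs cannot be set beside these. Cldn6, a claudin of embryonic epithelia, had 1.28 and 5.07 FPKM in Hep-Org, against at most 0.143 FPKM in liver, and passed only through Hep-Org. Cldn1, a main claudin of hepatocytes and bile ducts, fell to 0.132 and 0.231 FPKM in Hep-Org, against 1.26 to 43.6 FPKM in liver (-3.75 ± 0.46 SE; limma, adjusted p = 2.8e-05), opposite to Cldn4 and Cldn7. Tjp1, the junction scaffold ZO-1, had 10.8 and 8.44 FPKM in Hep-Org, against 2.75 to 5.99 FPKM in liver (1.04 ± 0.16 SE; limma, adjusted p = 0.00015), and its difference was 0.88, under the size of a call, without Hep-Org replicate 1.

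Of 14 adherens junction and desmosome genes 11 passed, all of them in liver alone, with 5 called higher, 1 lower and a median of 0.95. Against undamaged liver alone 1 was called higher and 2 lower, and after rescaling 8 and none. Epcam, an adhesion protein of simple epithelia that binds Cldn7, had 6.89 and 5.24 FPKM in Hep-Org, against at most 1.36 FPKM in liver (2.48 ± 0.17 SE; limma, adjusted p = 1.6e-07). Dsp, which ties keratins to desmosomes, had 11.6 and 10.9 FPKM in Hep-Org, against 0.303 to 8.49 FPKM in liver (1.62 ± 0.27 SE; limma, adjusted p = 0.00032, and 0.082 against undamaged liver alone). The desmosomal cadherin Dsc2 fell to 1.31 and 0.785 FPKM in Hep-Org, against 1.46 to 15.1 FPKM in liver (-1.87 ± 0.32 SE; limma, adjusted p = 0.00039, and -0.93 after rescaling).

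Of 12 regulators of epithelial transcription and splicing 4 passed in liver alone, with 2 called higher, none lower and a median of 0.80. The called ones were the factors Elf3, with 4.43 and 6.22 FPKM in Hep-Org, against 0.0918 to 5.21 FPKM in liver (1.96 ± 0.41 SE; limma, adjusted p = 0.0018), and Klf4, with 4.17 and 2.99 FPKM in Hep-Org, against 0.096 to 4.29 FPKM in liver (1.27 ± 0.30 SE; limma, adjusted p = 0.0044). The highest liver libraries overlapped Hep-Org for both genes, which were named after their values had been seen. Without Hep-Org replicate 1, Elf3 was called higher, Klf4 lost its call and the splicing factor Esrp2 was called lower. Ehf, St14 and Klf5 passed only through Hep-Org. The Ets factor Ehf had 2.96 and 5.70 FPKM in Hep-Org, against at most 0.466 FPKM in liver. St14, the membrane protease matriptase, had 1.98 and 4.75 FPKM in Hep-Org, against at most 0.148 FPKM in liver. Klf5, a factor of gut crypt and other epithelia, had 2.62 and 1.42 FPKM in Hep-Org, against at most 0.178 FPKM in liver.

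The families of Lgals3 and Ly6d were mixed. Of 7 other galectins 5 passed, all of them in liver alone, with 2 called higher, 1 lower and a median of 0.94. Lgals1 (galectin-1) had 225 and 135 FPKM in Hep-Org, against 2.81 to 49.1 FPKM in liver (3.51 ± 0.60 SE; limma, adjusted p = 0.00041). Lgals2 had 0.657 and 4.28 FPKM in Hep-Org, against 0 to 1.25 FPKM in liver (1.05 ± 0.32 SE; limma, adjusted p = 0.018), and its difference was 0.22 without Hep-Org replicate 2. Lgals8 fell to 9.88 and 9.16 FPKM in Hep-Org, against 19.97 to 35.8 FPKM in liver (-1.33 ± 0.15 SE; limma, adjusted p = 1.7e-05), and its difference was 0.10 after rescaling to the same sum.

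Of 10 other Ly6 and uPAR genes 5 passed in liver alone, with 1 called higher, 1 lower and a median of -0.08. Plaur, the urokinase receptor, had 12.7 and 9.05 FPKM in Hep-Org, against 0 to 6.67 FPKM in liver (2.79 ± 0.24 SE; limma, adjusted p = 1.2e-06). Lynx1, which binds nicotinic receptors, had 1.68 and 1.86 FPKM in Hep-Org, against 0.0523 to 0.528 FPKM in liver, and passed only through Hep-Org. The complement inhibitor Cd59a fell to 7.67 and 5.52 FPKM in Hep-Org, against 13.9 to 53.3 FPKM in liver (-2.04 ± 0.32 SE; limma, adjusted p = 0.00021, and -0.66 after rescaling).

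Related junction genes were called lower soon after PHx. At 6 h, 7 of 15 tight junction genes tested were called lower than in undamaged liver and none higher, with a list median of -1.07, where 7.98% of all genes were called lower and 5.37% higher and the median of all genes was 0.01. Cldn1 fell to 1.26 and 2.90 FPKM at 6 h, against 41.5 and 26.7 FPKM in undamaged liver (-3.53 ± 0.62 SE; limma, adjusted p = 0.0029). The others were Cgn, Cldn2, Cldn3, Cldn12, Ocln and Tjp3, with log2 differences of -1.54 to -2.85. Of 11 adherens junction and desmosome genes, 6 were called lower at 6 h and none higher, with a median of -1.38. Cdh1, the epithelial cadherin, fell to 2.79 and 5.32 FPKM at 6 h, against 24.9 and 24.9 FPKM in undamaged liver (-2.40 ± 0.54 SE; limma, adjusted p = 0.0097). Dsp fell to 0.303 and 0.746 FPKM at 6 h, against 8.49 and 3.81 FPKM in undamaged liver (-2.16 ± 0.36 SE; limma, adjusted p = 0.0023). The desmosomal genes Dsc2, Dsg2 and Perp and the catenin gene Ctnnb1 were the other 4. After rescaling, 3 of the tight junction and 5 of the adherens and desmosome genes were called lower and none higher, and with voom on recovered reads 6 and 5 lower and 1 and 0 higher. Without PHx 6 h replicate 1 the counts called lower were 4 and 3, and without undamaged replicate 1 they were 3 and 5. All genes split into 707 higher and 1050 lower at 6 h, and with voom into 721 and 571. Against the same 2 undamaged libraries, the tight junction median was -0.89 at 12 h, -0.26 at 24 h and -0.41 at 48 h. It was -0.77 at 72 h, -0.51 at 7 d and at 14 d and -0.74 at 21 d, so it stayed below 0 throughout. The adherens and desmosome median was -0.83 at 12 h and between -0.09 and -0.26 from 24 h on. Between 6 to 24 h and 14 to 21 d the medians of the 2 lists were -0.05 and -0.29. Other markers moved at 6 h as well. Of 9 stellate and mesenchymal markers 5 were called higher, with sums of 42.8 and 45.4 FPKM at 6 h, against 3.18 and 18.4 FPKM in undamaged liver. Of 4 erythroid markers tested 3 were called higher, with sums of 6874 and 550.2 FPKM at 6 h, against 39.1 and 31.5 FPKM in undamaged liver, and of 6 neutrophil markers 1, with sums of 826 and 113 FPKM at 6 h, against 0.655 and 120.4 FPKM in undamaged liver. Of 10 hepatocyte markers 1 was called higher and 1 lower (median -1.17), with sums of 22760 and 35036 FPKM at 6 h, against 66729 and 71623 FPKM in undamaged liver. Mitochondrial genes took 20.9% and 40.8% of reads at 6 h, against 8.81% and 12.5% in undamaged liver. The part of these in the 6 h differences was not tested.

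Higher at 6 h were genes related to several members. Krt19 had 2.99 and 1.19 FPKM at 6 h, against 0.105 and 0 FPKM in undamaged liver (1.49 ± 0.45 SE; limma, adjusted p = 0.035, and 0.16 after rescaling). Tgm1 had 15.4 and 18.9 FPKM at 6 h, against 2.87 and 3.20 FPKM in undamaged liver (2.17 ± 0.59 SE; limma, adjusted p = 0.023). Lgals4, a galectin of gut epithelium, had 21.3 and 42.3 FPKM at 6 h, against 3.39 and 2.74 FPKM in undamaged liver (2.94 ± 0.50 SE; limma, adjusted p = 0.0025). Plaur had 6.67 and 2.85 FPKM at 6 h, against 0.13 and 0.737 FPKM in undamaged liver (1.96 ± 0.32 SE; limma, adjusted p = 0.0022). Among the remaining calls of these lists Klf4 and Ly6c1 were higher, and Ly6e and Lgals9 lower. After rescaling all 4 lost the call (limma, adjusted p of 0.058 to 0.27), and with voom Ly6c1 alone kept it.

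Between 6 to 24 h and 14 to 21 d, fewer genes of the related lists were called. All genes split into 455 higher and 579 lower early, and after rescaling into 194 and 1170. Lgals4 (2.64), Cldn14 (1.45), Plaur (1.42) and Ly6c1 (1.08) were higher early on the log2 scale, and Ctnnb1 (-1.17), Cldn1 (-1.34), Dsc2 (-1.07) and Dsg2 (-1.45) lower. Beside Ly6d, 3 of 6 neutrophil markers were called higher in the early window, and their summed FPKM was 21.7 to 826 at 6 to 24 h, against 3.05 to 68.7 at 14 to 21 d. The sum of the hepatocyte markers was 22760 to 60894 at 6 to 24 h, against 42854 to 77649 at 14 to 21 d. In the macrophage list 0 of 9 were called, with sums of 86.4 to 357 at 6 to 24 h, against 187 to 363 at 14 to 21 d, and in the lymphocyte list 0 of 3 tested were called. Of the erythroid markers 4 were tested, with 3 called higher and 1 lower early, and their sum was 78.6 to 6874 FPKM at 6 to 24 h, against 36.9 to 161 FPKM at 14 to 21 d. The part of these cells in the level of Ly6d was not tested.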

How the data were processed

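The deposited table holds FPKM, made by the authors from reads aligned with HISAT2 2.0.5 to mm10, both named in the submitters' processing notes. How fragments were counted and scaled, and with which annotation, is not given in the sources used here. Column names matched the labels, and that of undamaged replicate 1, spelled differently, was matched by elimination. Symbols, positions and exon lengths came from GENCODE M21. FPKM times exon length fell on whole reads for 97.9% to 98.7% of low values per library (up to 20 reads, tolerance 0.05), so reads were recovered and their number limits the precision of low values.

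Tests ran on log2(FPKM + 1) for the 13162 genes that reached 1 FPKM in 2 or more libraries. All 10 members passed this filter, but 6 (Krt20, Krt23, Cldn4, Cldn7, Cdh17 and Sprr1a) would not have passed in liver alone. All 20 libraries entered 1 limma fit (version 3.58.1, R 4.3.3) with 1 mean per group and moderated variances (trend and robust), with Benjamini-Hochberg adjustment over all tested genes. Called means that adjusted p was under 0.05 and that the log2 difference, or the range of means over the PHx times, was at least 1 in size. Alternatives were a pseudocount of 0.1, no filter, rescaling to the same sum, a replicate block, voom on recovered reads, undamaged liver alone as reference and leaving out each library. The procedure was tested on simulated data.

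Members and gene lists were chosen with earlier results of these data known. Named genes were the members, up to 3 called genes per list with the largest moderated t in Hep-Org versus liver and at least 1 FPKM in the higher group, the 3 nearest genes of each liver-expressed member, and defining markers. Genes named in other comparisons were those called there. 1 tight junction gene is not reported here and was left out of its list. Saa1, Xist, Ddx3y, the ratio of Krt18 to Krt8 and the list counts under other settings were chosen after values had been seen. Summaries used Python 3.11.15.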

Additional observations from a re-analysis of the deposited data

How the results depend on the processing

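The direction of Ly6d between 6 to 24 h and 14 to 21 d held in every alternative run, and its call in all but voom on recovered reads. Reversals were Krt8 between these windows (-0.13 rescaled, and -0.14 to 0.79 over left-out libraries, the lowest without PHx 24 h replicate 1), Lgals8 in Hep-Org (0.10 rescaled) and the described difference of Krt8 in Hep-Org (-0.34 to 1.25 over left-out libraries, the lowest without Hep-Org replicate 1). Rescaling moved the count of genes called in Hep-Org versus liver from 3239 to 8079 (7074 higher, 1005 lower, against 1407 and 1832 on the deposited scale), and voom gave 7885. Low-count members rest on single reads in liver, which limits any statement on their times.

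Counts of genes called moved as follows. The time course (1785) gave 953 without the filter, 1015 rescaled and 1108 with voom. Against undamaged liver, 6 h (1757) gave 699 rescaled, and 12 h (732) gave 353 without the filter, 159 rescaled and 342 with voom. At 24 h (30) the count was 19 with a pseudocount of 0.1, 6 without the filter, 2 rescaled, 5 with the replicate block and 1 with voom. At 48 h (91) it was 43 without the filter, 32 rescaled and 22 with voom, and at 72 h (425) it was 98 without the filter and 229 with the replicate block. At 7 d (80) it was 46 without the filter and 46 with voom, and at 21 d (0) it was 1 without the filter. Early versus late (1034) gave 1651 with a pseudocount of 0.1 and 1624 with voom.

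Leaving out each library in turn gave 1208 to 2181 for the time course, 1049 to 2056 at 6 h, 372 to 824 at 12 h, 0 to 110 at 24 h, 24 to 233 at 48 h, 32 to 588 at 72 h, 43 to 208 at 7 d, 0 to 35 at 14 d and 0 to 159 at 21 d. It gave 712 to 1144 for early versus late and 2231 to 3303 for Hep-Org versus liver. A group left with 1 library was assumed to vary like the others.

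Replicate numbers did not pair the libraries over all groups: over 45 pairs of groups the correlation of replicate differences ran from -0.381 to 0.472 (median -0.05), and 5 passed 0.1. The sample numbers of all PHx replicate 2 libraries form a block apart from those of every other library. Whether that block is a batch is not told by the labels. The 45 pairs include undamaged liver and Hep-Org, where both replicates lie in the same block. With the replicate block the time course gave 1327 calls and Ly6d between the windows an adjusted p of 0.015 (limma), and no call on a member changed.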
